A study of Mus musculus with 5 samples.

Results

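Pla2g2a, Agt and Saa3 are 3 genes of secreted proteins whose array intensity was higher in Fos-/- spleen co-cultures that received a deltaNFAT virus than in any other co-culture of the series. They were chosen by their intensity on these same arrays, for exactly this pattern, so their height with deltaNFAT is a description and carries no test. Each gene is read by 1 probe set, 92735_at for Pla2g2a, 101887_at for Agt and 102712_at for Saa3. These are 3 of 12488 probe sets and 3 of the 8251 genes that could be named.

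The series holds 5 mouse co-cultures with 1 array each. Spleen or bone marrow cells shared a dish with ST2-T stromal cells for 6 days, in dexamethasone and 1,25-dihydroxyvitaminD3, conditions in which osteoclasts form, and the whole dish was then harvested. The virus-treated cultures were Fos-/- splenocytes infected with deltaNFAT virus and Fos-/- splenocytes infected with GFP virus, and the others were uninfected Fos-/- splenocytes, Fos+/+ splenocytes and Fos+/+ bone marrow cells. The ST2-T layer was common to all 5 dishes and the labels give it no Fos mutation. Fos is part of the AP-1 transcription factor, and NFAT proteins are transcription factors that calcium signals switch on. What the deltaNFAT virus encodes beyond its name, the viral doses, the mouse strain and the number of animals are not in the labels. The Fos probe set read 581 with deltaNFAT virus, 607 with GFP virus and 426 in uninfected Fos-/- spleen, against 848 in Fos+/+ spleen and 614 in Fos+/+ bone marrow, so it does not separate the genotypes in dishes that also hold stromal RNA. RNA of blood-forming and stromal cells was mixed, so an intensity cannot be assigned to either, and more cells of a type cannot be told apart from more RNA per cell.

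Pla2g2a encodes a secreted phospholipase A2 that releases fatty acids from phospholipids, the first step towards prostaglandins and leukotrienes, and that kills Gram-positive bacteria. Agt encodes angiotensinogen, a serpin-family protein made mainly by the liver and also by fat and some other cells, from which renin and the converting enzyme cut the blood pressure hormone angiotensin II. Saa3 encodes an acute phase serum amyloid A protein that mouse macrophages, fat cells and fibroblasts make outside the liver. In other settings inflammatory cytokines raise all 3 genes, through NF-kB and, for Saa3 and Agt, C/EBP factors.

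The reference carries the 3 genes on different chromosomes: Pla2g2a on 4, Agt on 8 and Saa3 on 7. RefSeq classes Pla2g2a as a transcribed pseudogene in its C57BL/6J assembly (GRCm38.p6). A frameshift is known to disable the enzyme in several inbred strains, so an array signal does not say whether active enzyme was made.

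The upstream sequences of Agt and Saa3 are shown because both genes were high in the same culture and the factors named by the design, NFAT and AP-1, bind short DNA motifs. Each is the 250 bases before the start of the gene, 5′ to 3′ on the gene's strand, from RefSeq (GRCm38.p6). Agt lies on the minus strand and the stretch is chr8:124569707-124569956. Saa3 also lies on the minus strand, at chr7:46715677-46715926. Capitals mark every match to the motifs searched.
Agt: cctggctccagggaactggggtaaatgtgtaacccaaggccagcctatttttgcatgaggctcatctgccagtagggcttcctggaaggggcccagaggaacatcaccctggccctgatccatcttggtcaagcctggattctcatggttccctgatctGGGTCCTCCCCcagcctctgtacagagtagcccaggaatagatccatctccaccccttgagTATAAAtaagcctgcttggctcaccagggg
Saa3: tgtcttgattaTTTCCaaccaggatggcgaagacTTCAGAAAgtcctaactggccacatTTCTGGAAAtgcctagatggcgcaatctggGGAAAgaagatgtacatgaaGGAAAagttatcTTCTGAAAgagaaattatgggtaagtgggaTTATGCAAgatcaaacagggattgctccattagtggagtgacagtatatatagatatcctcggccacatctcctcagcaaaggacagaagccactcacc

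Motifs were searched on both strands and numbered so that -1 is the last base before the gene's start. They were the NFAT core GGAAA, the AP-1 site TGANTCA, a loose C/EBP site TTNNGNAA, a loose NF-kB site, GGG and CC with 5 bases of any kind between them, and the TATA box TATAAA. The Saa3 stretch held 4 NFAT cores, at -239 to -235, -187 to -183, -161 to -157 and -141 to -137. It also held 4 C/EBP matches, at -216 to -209, -191 to -184, -129 to -122 and -99 to -92, and the second of these overlaps an NFAT core. The Saa3 stretch held 0 NF-kB matches and 0 TATA box matches. The Agt stretch held 0 NFAT cores and 0 C/EBP matches, a pair of overlapping NF-kB matches spanning -91 to -81 and a TATA box at -30 to -25. Neither stretch held the AP-1 letters.

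Single matches of the looser motifs are common. Of 8412 upstream stretches of 6576 genes on the array, 54.1% held at least 1 NFAT core, 30.5% a C/EBP match, 58.9% an NF-kB match, 8.94% a TATA box and 5.54% an AP-1 site. As many as 4 NFAT cores were found in 1.58% of the stretches and as many as 4 C/EBP matches in 0.357%. A match describes letters only and shows no binding.

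Pla2g2a read 1247 with deltaNFAT virus, 17.1 with GFP virus, 23.6 in uninfected Fos-/- spleen, 20.9 in Fos+/+ spleen and 23.0 in Fos+/+ bone marrow. Intensities are the authors' scaled values on a linear scale, and a floor of 19.8 was set at the 40th percentile of all values, below which values have no order. The array with deltaNFAT was high and the other 4 lay at or just over the floor. Its fold over GFP virus was at least 63.0, a bound because the GFP value was under the floor. Over uninfected Fos-/- spleen, the next highest array, the ratio was 52.8-fold, a value that rests on a reading barely above the floor.

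Agt read 463 with deltaNFAT virus, 5.70 with GFP virus and 2.50 in uninfected Fos-/- spleen. In Fos+/+ spleen it read -47.0 and in Fos+/+ bone marrow -70.1, values below 0 as deposited. All 4 arrays without deltaNFAT were therefore under the floor, with no order among them. The fold was at least 23.4 against each of them.

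Saa3 read 704 with deltaNFAT virus, 159 with GFP virus, 90.9 in uninfected Fos-/- spleen, 272 in Fos+/+ spleen and 152 in Fos+/+ bone marrow. Unlike the other members, it was above the floor in every array. With deltaNFAT it was 4.41-fold higher than with GFP virus, 7.74-fold higher than in uninfected Fos-/- spleen, 4.62-fold higher than in Fos+/+ bone marrow and 2.59-fold higher than in Fos+/+ spleen, the next highest array.

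**Figure D1:**
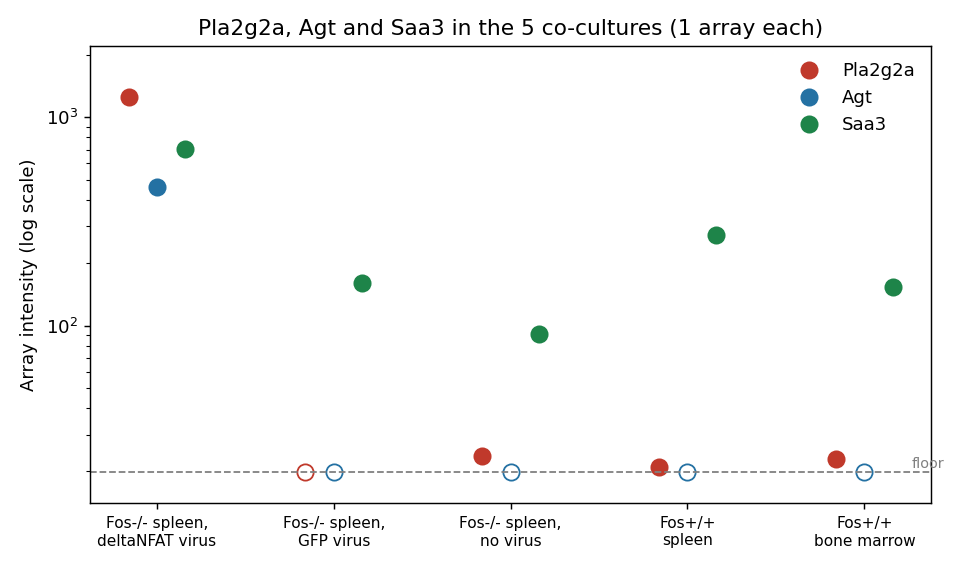
Array intensity (log scale) of Pla2g2a, Agt and Saa3 in the 5 co-cultures, 1 point per array. Open circles stand for values at or under the floor of 19.8, drawn on the dashed line, where Agt lies in 4 arrays. Saa3 is above the floor in all arrays, from 90.9 to 704.

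The order of Saa3 among the 4 arrays without deltaNFAT was not used to choose it. From low to high it was uninfected Fos-/- spleen (90.9), Fos+/+ bone marrow (152), GFP virus (159) and Fos+/+ spleen (272). Uninfected Fos-/- spleen read 2.99-fold lower than Fos+/+ spleen. A difference of at least 2-fold, with the brighter array at 39.6 or more, was met downward by 6.48% and upward by 6.42% of 4997 genes in that comparison. GFP virus read 1.75-fold higher than no virus in Fos-/- spleen, short of 2-fold. With 1 array per group there is no replicate spread, so neighbours in this order, above all the bone marrow and GFP arrays, cannot be separated.

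Of 5032 genes bright enough, 3.54% were at least 2-fold higher with deltaNFAT and 2.58% lower. All 3 members were higher, as the choice of members fixes. Against uninfected Fos-/- spleen, 11.0% of 5180 genes were higher and 6.66% lower. Against Fos+/+ spleen, 14.2% of 5207 genes were higher and 9.20% lower. Against Fos+/+ bone marrow, 5.97% of 5290 genes were higher and 8.28% lower.

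Being highest in the deltaNFAT array by any amount, the pattern that chose the members, was common: it held for 15.3% of 4811 genes. The share was 17.9% for the GFP array, 25.2% for uninfected Fos-/- spleen, 29.4% for Fos+/+ spleen and 28.8% for Fos+/+ bone marrow.

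A stricter form of the pattern, an array at least 2-fold above each of the other 4, was held by 32 of 4811 genes for the deltaNFAT array (0.665%). For the GFP array it was held by 10 of 4715 (0.212%), for uninfected Fos-/- spleen by 34 of 4701 (0.723%), for Fos+/+ spleen by 71 of 4666 (1.52%) and for Fos+/+ bone marrow by 55 of 4954 (1.11%). The order of the deltaNFAT array and uninfected Fos-/- spleen was not stable. With probe sets averaged the counts were 33 and 26, without probe sets carrying a suffix letter 33 and 30, and with a floor at the 60th percentile 14 and 10. Bone marrow, at 13, was then also below deltaNFAT, while Fos+/+ spleen had the most such genes under every setting run. Among genes reading 79.2 or more in the array concerned, the largest margin outside the deltaNFAT array was 11.5-fold, for Stard10 in uninfected Fos-/- spleen. Fam102a in Fos+/+ spleen had 7.57-fold, Siah1-ps1 in Fos+/+ bone marrow 5.27-fold and Foxl1 with GFP virus 2.40-fold. Pla2g2a at 52.8-fold and Agt at 23.4-fold lay above all of these at the floor used, and Saa3 at 2.59-fold lay within their range. The margin of Agt follows the floor: at the 60th percentile it was at least 7.10-fold, against 7.19-fold for Mmp13, whose values are all above that floor.

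**Figure D2:**
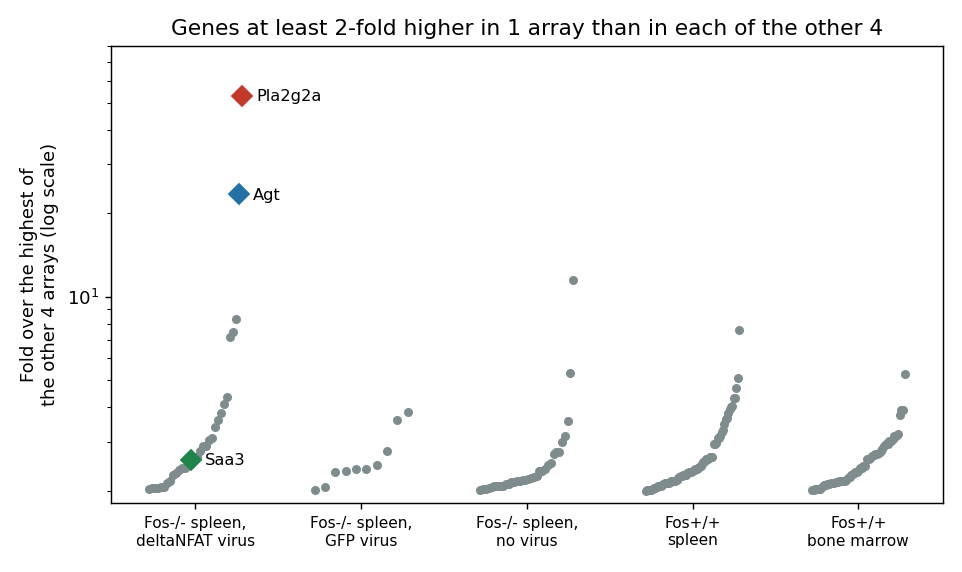
Genes at least 2-fold higher in 1 array than in each of the other 4, as fold over the next highest array (log scale), by the array that is high. Points within a column are sorted by size, and the coloured diamonds are the members. Pla2g2a (52.8) and Agt (23.4) lie above every point of the other columns, and Saa3 (2.59) lies among them.

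The 12 genes with the pattern most like the members' were ranked by the same margin, the deltaNFAT array over the highest of the other 4, among genes reading 79.2 or more with deltaNFAT. In order they were Ccl12, Mmp3, Mmp13, Ccl7, Ccr1, Ldb3, Ccl2, Cd74, Ccl8, Ifit1, Apod and Ifit3, with margins between 8.33-fold and 2.62-fold. Ccl2, Ccl7, Ccl8 and Ccl12 encode chemokines that draw monocytes, and Ccr1 a chemokine receptor. Mmp3 and Mmp13 encode proteases that cut matrix proteins and collagen. Ifit1 and Ifit3 belong to the interferon-induced genes, Cd74 is the MHC class II invariant chain, and Apod is a lipid-carrying apolipoprotein.

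The like genes differed in how low they were elsewhere. Ccl12 read 165 with deltaNFAT and was under the floor in the other 4 arrays, and Ccr1, at 81.2 with deltaNFAT, was under it as well. Mmp3 read 148 with deltaNFAT, 9.30 with GFP virus and 13.7 without virus, and it passed the floor only in bone marrow, at 19.9. Mmp13, by contrast, read 2107 with deltaNFAT, 293 with GFP virus and 106 without virus. It was thus 2.76-fold higher with GFP virus than without virus.

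Of these 12 genes, 6 were at least 2-fold higher with GFP virus than without virus, where 10.3% of 5113 genes were higher and 7.06% lower. They were Mmp13, Ccl7 (82.9 against 31.1), Ccl2 (193 against 70.1), Ccl8 (55.2 against a value under the floor), Ifit1 (65.4 against a value under the floor) and Ifit3 (39.9 against a value under the floor). For these genes part of the deltaNFAT level was also present with a virus that carried GFP. Pla2g2a and Agt were under the floor with GFP virus, and Saa3 did not reach 2-fold there. The ratios of deltaNFAT to GFP and of GFP to no virus share the GFP array.

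**Figure D3:**
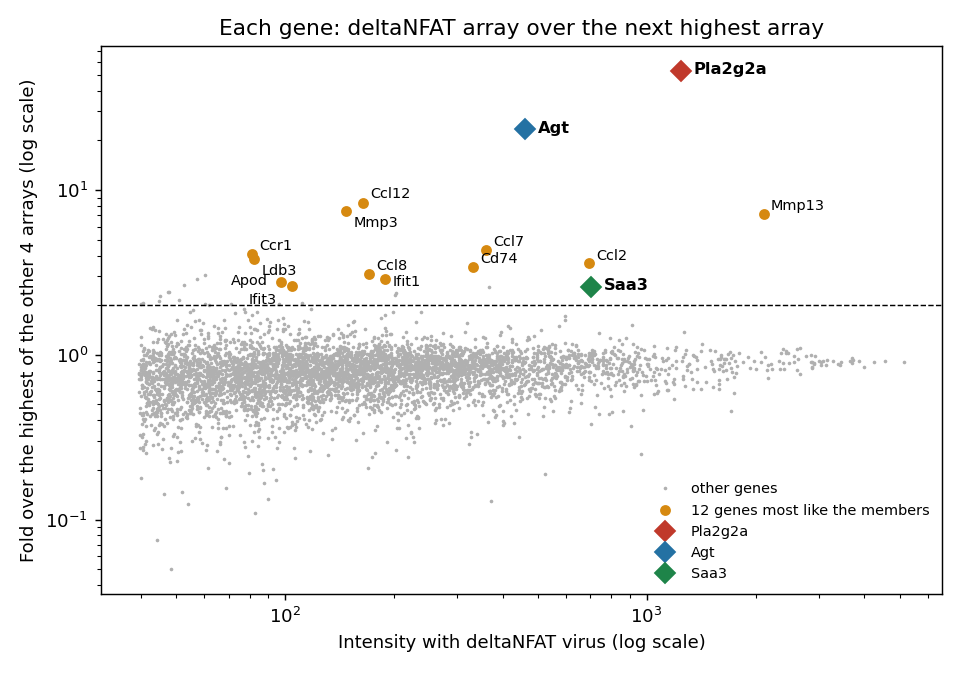
Intensity with deltaNFAT virus (x, log scale) against its fold over the highest of the other 4 arrays (y, log scale), for the genes reading 39.6 or more with deltaNFAT. The dashed line marks 2-fold, diamonds are the members and orange circles the 12 genes most like them. Pla2g2a and Agt stand above Ccl12, the highest circle at 8.33-fold, and Saa3 lies below the 12.

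Several of the like genes sit together on chromosomes. Ccl2, Ccl7, Ccl12 and Ccl8 lie in 1 stretch of chromosome 11, Mmp13 and Mmp3 on chromosome 9 with Mmp12 between them, and Ifit1 and Ifit3 on chromosome 19. Not every neighbour was at least 2-fold higher with deltaNFAT than in each other array. Ccl11, between Ccl7 and Ccl12, was under the floor in all arrays. Mmp12, by its brightest probe set, read 231 with deltaNFAT, 118 with GFP virus and 96.1 without virus. In Fos+/+ spleen it read 145 and in Fos+/+ bone marrow 120, so it was highest with deltaNFAT but short of 2-fold. Upstream stretches were found for 9 of these 12 genes. At least 1 NFAT core was found for 8 of the 9, all but Ldb3, where 54.1% of all stretches held 1. An AP-1 site was found for 4, namely Mmp3, Mmp13, Ldb3 and Ifit3, against 5.54% of all stretches. C/EBP matches, NF-kB matches and TATA boxes were also each found for 4 of the 9. Their shares over all stretches were 30.5%, 58.9% and 8.94%. These counts carry no test, and Ldb3 had 2 upstream stretches.

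The gene beside Pla2g2a was high with both viruses. Pla2g5, another secreted phospholipase and the gene next to Pla2g2a, read 192 with deltaNFAT, 160 with GFP virus, 53.1 without virus, 79.9 in Fos+/+ spleen and 25.6 in Fos+/+ bone marrow. It was 3.02-fold higher with GFP virus than without virus, and deltaNFAT read 1.20-fold over GFP. Its second probe set read 130 with deltaNFAT, 158 with GFP virus and 70.7 without virus, so the small difference between the viruses turned with the probe set. Pla2g4a, the cytosolic enzyme that supplies arachidonic acid, likewise read 90.7 with deltaNFAT, 96.7 with GFP virus and 38.5 without virus. Both genes thus read higher with either virus than without. Pla2g2c, also near Pla2g2a on chromosome 4, did not: it was above the floor only in Fos+/+ spleen, at 58.8, and Fos+/+ bone marrow, at 43.0.

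Of 10 measured phospholipases A2 and their receptor, 7 were bright enough in deltaNFAT against GFP, where 3.54% of all genes were higher and 2.58% lower. Pla2g2a was the 1 higher and Pla2g1b, the pancreatic type enzyme, the 1 lower, at 66.4 against 142. Pla2g7, which inactivates platelet-activating factor, read 1345 against 1344. Pla2g12a read 791 against 463, by a probe set that its identifier marks as reading a sequence family. The median log2 ratio of the 8 members above the floor was 0.00, as was that over all genes. Pla2g1b was read only by a probe set with a letter in its suffix. It was therefore not measured where such probe sets were left out.

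Downstream enzymes and receptors of prostaglandins and leukotrienes were mostly within 2-fold. Of 21 measured, 8 were bright enough, with 1 higher and 1 lower, where 3.54% of all genes were higher and 2.58% lower. Ptgds, prostaglandin D synthase, read 68.3 with deltaNFAT and 10.4 with GFP virus, and Hpgd, which degrades prostaglandins, read 42.7 and 110. Ptgds also read 34.4 without virus and 56.5 in Fos+/+ bone marrow. The Ptgds values came from a probe set that its identifier marks as reading a sequence family. Averaging its 3 probe sets ended the Ptgds call, and a floor at the 60th percentile ended the calls of both Ptgds and Hpgd. All 3 Ptgds probe sets carry a suffix letter, so Ptgds was not measured where such probe sets were left out. Ptgs2, the inducible cyclooxygenase, was under the floor in all 5 arrays. Tbxas1, thromboxane synthase, read 245 with deltaNFAT and 269 with GFP virus.

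In the renin-angiotensin list, 3 of the 12 genes bright enough were higher with deltaNFAT than with GFP virus and 0 lower, with 20 measured, where 3.54% of all genes were higher. The median log2 ratio was 0.25 against 0.00 over all genes, but it was 0.04 with a floor at the 60th percentile and 0.08 with probe sets averaged. Beside Agt, which was chosen for being high, they were Hsd11b1, which regenerates active glucocorticoid, at 65.1 against a GFP value under the floor, and Apln, a peptide hormone that opposes angiotensin, at 66.5 against 31.4. Hsd11b1 also read 55.3 in Fos+/+ bone marrow. Apln read 61.8 without virus, so that its GFP value was the low one. Neither Hsd11b1 nor Apln passed with a floor at the 60th percentile.

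Enzymes that act on Agt or its products had no such pattern. The brightest probe set of Ace, the converting enzyme, read 38.1 with deltaNFAT, 25.5 with GFP virus and 27.1 without virus. Enpep, the aminopeptidase that breaks down angiotensin II, read 219 with deltaNFAT, 196 with GFP virus and 174 without virus. Mme, neprilysin, read 128 with deltaNFAT, 155 with GFP virus and 23.1 in uninfected Fos-/- spleen. It was highest in uninfected Fos+/+ bone marrow, at 176, and under the floor in Fos+/+ spleen. Of the angiotensin receptors, Agtr2 was under the floor in all 5 arrays.

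**Figure D4:**
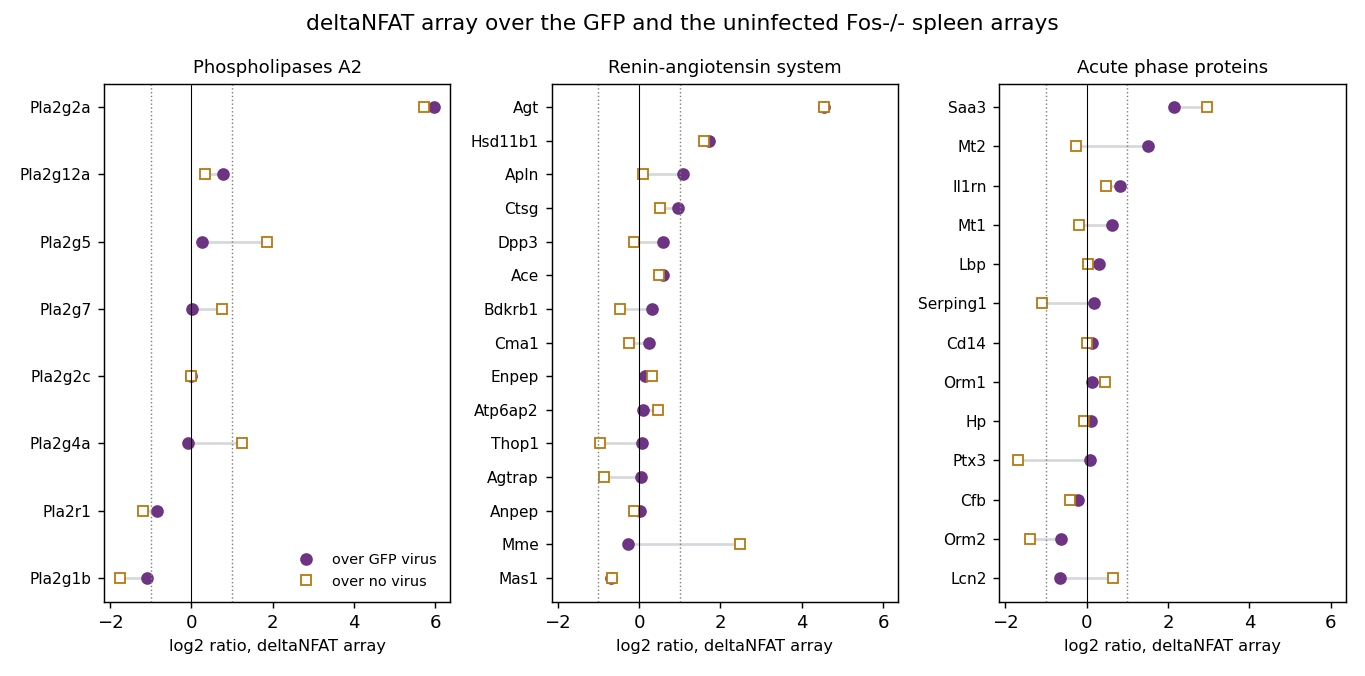
Log2 ratio of the deltaNFAT array to the GFP array (filled circles) and to uninfected Fos-/- spleen (open squares) for genes of 3 lists that read 39.6 or more in at least 1 array. Dotted lines mark 2-fold. Pla2g2a, Agt and Saa3 lie at the top of their lists in both ratios, while Pla2g5, Pla2g4a and Mme are beyond 2-fold only against the uninfected array.

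The other serum amyloid genes gave a mixed reading. Saa4, the gene beside Saa3, was under the floor in all 5 arrays, as was Saa2 by its brightest probe set. A second Saa2 probe set, which its identifier marks as reading a sequence family, read 69.4 with deltaNFAT, -24.9 with GFP virus, -62.7 without virus, -40.4 in Fos+/+ spleen and -89.3 in Fos+/+ bone marrow. It was thus above the floor only with deltaNFAT. Which serum amyloid transcripts it reads was not tested.

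Of 27 acute phase genes measured, 10 were bright enough in deltaNFAT against GFP, with 2 higher and 0 lower, where 3.54% of all genes were higher and 2.58% lower. They were Saa3, chosen for being high, and the metallothionein Mt2. Mt2 read 1585 with deltaNFAT, 554 with GFP virus and 1907 without virus, so the GFP array was the low one. Haptoglobin, Hp, read 1264 with deltaNFAT and 1167 with GFP virus, and the lipopolysaccharide-binding protein Lbp read 756 and 609. Lipocalin 2, Lcn2, also a neutrophil granule protein, read 402 with deltaNFAT, 639 with GFP virus and 257 without virus. Ptx3, a pentraxin, read 66.1 with deltaNFAT and 62.3 with GFP virus against 215 without virus. The list's median log2 ratio was 0.12, and 0.00 with probe sets averaged.

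With deltaNFAT or GFP virus, cytokines that raise acute phase genes lay near or under the floor. Not all did so in the uninfected arrays. Ctf1, by its brightest probe set, was under the floor with either virus and in Fos+/+ spleen. It read 70.4 in uninfected Fos-/- spleen and 85.9 in Fos+/+ bone marrow. Il17a read 39.7 and 39.9 in those last arrays, and less with either virus. Il1b, Il6, Tnf, Il11 and Ifng were under the floor in all 5 arrays, and 0 of the 8 measured were bright enough in deltaNFAT against GFP. Among their receptors and those of serum amyloid A, 1 of 12 was higher and 0 lower, where 3.54% of all genes were higher. It was Il1r2, the decoy receptor of interleukin 1, at 90.4 with deltaNFAT, 26.0 with GFP virus and 18.1 without virus. It read 60.7 in Fos+/+ bone marrow, and the call was lost with a floor at the 60th percentile. A second Il1r2 probe set read 82.2 with deltaNFAT and 49.1 with GFP virus, only 1.67-fold. Osmr, the oncostatin M receptor, read 213 with deltaNFAT, 134 with GFP virus and 87.1 without virus. Fpr2, a receptor of serum amyloid A, read 269 and 228 with deltaNFAT and GFP virus and 198 without virus.

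Of 22 regulators of acute phase promoters bright enough, 2 were higher with deltaNFAT than with GFP virus and 0 lower. The shares over all genes were 3.54% higher and 2.58% lower. These were Nfatc1, at 82.7 against 23.4 and no longer higher with a floor at the 60th percentile, and Rcan1, a calcineurin regulator and NFAT target, at 209 against 96.6. Whether the Nfatc1 probe set also reads a viral transcript was not tested. Rcan1 read 201 without virus, so its GFP value was the low one. The C/EBP genes differed little, with Cebpb at 926 and 843 and Cebpd at 887 and 826 in the deltaNFAT and GFP arrays. Nfkbia, the NF-kB inhibitor and target, read 841 and 915, and Rela, an NF-kB subunit, read 612 and 567.

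Markers of cell types that make these proteins were set beside the members. Over all genes, 3.54% were higher with deltaNFAT than with GFP virus and 2.58% lower. The hepatocyte list had 7 of 11 measured markers under the floor in all arrays, among them Alb, Ttr, Apoa1 and Hnf4a. Its summed intensity, with negative values counted as 0 as in all such sums here, was 183 with deltaNFAT, 224 with GFP virus and between 220 and 237 in the uninfected arrays. The brightest hepatocyte markers, Cps1 and Cyp2e1, were above the floor in all arrays. They read 94.5 and 59.2 with deltaNFAT and 88.0 and 76.8 with GFP virus. The adipocyte list summed to 1578 with deltaNFAT, 1423 with GFP virus and 1402 without virus, against 1301 in Fos+/+ spleen and 2275 in Fos+/+ bone marrow, with 0 of 5 bright genes higher over GFP. Retn, Lipe and Cd36 of that list were under the floor in all 5 arrays, but its brightest members were not. Lpl read 783 with deltaNFAT, 570 with GFP virus and 126 without virus, against 469 in Fos+/+ spleen and 1207 in Fos+/+ bone marrow. Cebpa went the other way, at 437 with deltaNFAT, 523 with GFP virus and 942 without virus, so the similar sums hide opposite differences. The fibroblast and stroma list summed to 15840 with deltaNFAT and 17050 with GFP virus, with 0 of 10 higher and 0 lower.

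Macrophage markers had 1 of 16 higher with deltaNFAT than with GFP virus, Itgam, against 3.54% of all genes. They summed to 18389 and 19934. Neutrophil markers summed to 5041 with deltaNFAT, 7350 with GFP virus, 3506 without virus, 1733 in Fos+/+ spleen and 10144 in Fos+/+ bone marrow, with 0 of 10 higher or lower over GFP. The mast cell list summed to 255 with deltaNFAT and 210 with GFP virus, against 420 in Fos+/+ spleen and 410 in Fos+/+ bone marrow. Cpa3, Kit and Fcer1a were under the floor in all arrays. Mcpt1 and Cma1, by their brightest probe sets, were above it in all arrays. Mcpt1 read 92.1 with deltaNFAT, 62.3 with GFP virus and 251 in Fos+/+ spleen. T and NK cell markers had 1 of 2 bright genes higher, Klrd1, with Cd3e, Cd3d and Cd3g under the floor. They summed to 214 with deltaNFAT, 164 with GFP virus and 495 without virus. Klrd1 read 43.3 with deltaNFAT, 15.8 with GFP virus and 68.6 without virus, so its GFP value was the low one. B cell markers summed to 384 with deltaNFAT and 359 with GFP virus, with 0 of 3 higher. The osteoblast list had only Ibsp bright, at 168 with deltaNFAT and 226 with GFP virus, and Alpl under the floor.

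Most, but not all, bright osteoclast markers were higher with deltaNFAT than with GFP virus. Of 10 bright enough, 7 were higher than with GFP virus and 0 lower, where 3.54% of all genes were higher, and the list summed to 4173 with deltaNFAT, 2003 with GFP virus and 2292 without virus. The 7 were Acp5, Ctsk, Calcr, Car2, Ckb, Nfatc1 and Slc9b2, of which 3, Acp5, Ctsk and Ckb, were left with a floor at the 60th percentile. Mmp9, Tcirg1 and Tnfrsf11a were bright enough but did not pass. Mmp9, the brightest of the list with deltaNFAT, read 1714 with deltaNFAT, 1188 with GFP virus and 1046 without virus. Its dimmer probe set read 175 with deltaNFAT and 77.5 with GFP virus. Ckb read 524 with deltaNFAT, 203 with GFP virus and 448 without virus, so the GFP array was the low one. Acp5 read 964, 239 and 462 in the same arrays, so its GFP value was also the lowest. It was 2.09-fold higher with deltaNFAT than without virus. Ctsk, the bone-degrading cathepsin K, read 372 with deltaNFAT, 79.3 with GFP virus and 61.3 without virus, against 2862 in Fos+/+ spleen and 2495 in Fos+/+ bone marrow. The list summed to 16758 in Fos+/+ spleen and 12418 in Fos+/+ bone marrow. In those 2 arrays Pla2g2a read 20.9 and 23.0 and Agt was under the floor. Saa3 read 272 and 152 there, and Fos+/+ spleen, with the highest osteoclast sum, was its next highest array after deltaNFAT. The part of osteoclast, or any other, cells in the members' values was not tested.

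**Figure D5:**
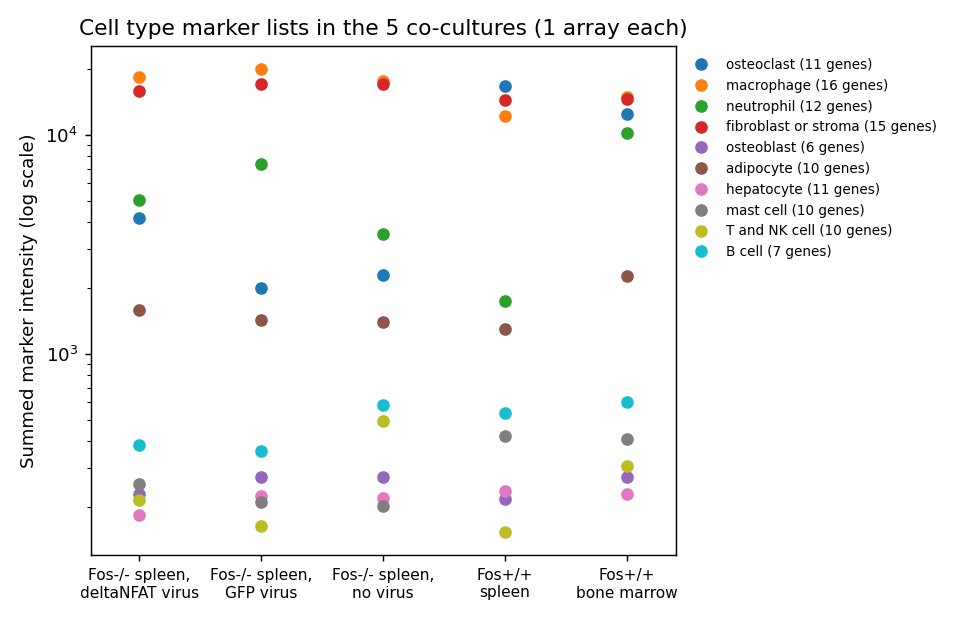
Summed intensity (log scale) of 10 cell type marker lists in the 5 co-cultures, 1 point per list and array. Osteoclast markers are highest in the Fos+/+ arrays (16758 and 12418), against 4173 with deltaNFAT, and the hepatocyte list lies between 183 and 237 throughout.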

How the data were processed

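RNA of 5 co-cultures was measured, and for each probe set the authors deposited a linear intensity by array. Their software was not given in the sources used here. Trimmed by 2% at both ends, the mean of each array was 100.1, and 20.3 to 22.4% of an array's values did not exceed 0. Scaling and some form of subtraction were inferred from these values. Groups came from the sample titles. Arrays were rescaled to 1 trimmed mean, values under the floor (40th percentile, 19.8) were set to it, and log2 ratios were taken with Python 3.11.15, pandas and numpy. Gene symbols came from the platform annotation: 10833 probe sets other than the 66 controls had 1 symbol, 396 of all probe sets had several and 1237 none. A match by gene identifier to RefSeq (GRCm38.p6) found 10817 and changed 0 symbols. The probe set with the highest mean stood for a gene.

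A gene counted as higher or lower at 2-fold where the brighter array reached 39.6, 2 times the floor. No test was possible with 1 array per group, so no p-value or standard deviation is given, and the number of arrays limits the precision. The procedure was tested on simulated data. Which genes could be named was set by a fixed rule. It allowed the members, and the 12 genes with the largest margin of the deltaNFAT array over the highest other array at 4 times the floor (79.2). It also allowed list members past 2-fold and the brightest others (up to 6 a pathway list, 2 a marker list). Every phospholipase A2, serum amyloid A and renin-angiotensin gene was allowed too. Not every gene that the rule allowed is named. Stard10, Fam102a, Siah1-ps1, Foxl1, Ccl11, Mmp12, Fos, Ptgs2, Ptx3, Osmr, Fpr2, Tcirg1, Tnfrsf11a, the cytokines and the markers under the floor fall outside the rule. These were named after their values were seen. The members and lists were chosen with earlier results of these data known. Alternatives tried were no rescaling, quantile normalization, floors at other heights, averaging a gene's probe sets and leaving out probe sets with a letter in their suffix. Running them on the osteoclast markers was added after seeing the data. Upstream sequences for Pla2g2a, Ccl7, Ccl2 and Cd74 were not used here.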

Additional observations from a re-analysis of the deposited data

How the results depend on the processing

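The 3 members stayed at least 2-fold higher with deltaNFAT in each of the 4 comparisons under the alternatives run, but these are the values that chose them. Each has 1 probe set with no suffix letter, so averaging probe sets or leaving some out could not move them. The folds of Pla2g2a and Agt are bounds or nearly so and follow the floor. At the 60th percentile (65.1) Pla2g2a was at least 19.1-fold and Agt at least 7.10-fold over GFP virus. At a floor of 96.6, the size of the negative 1st percentile averaged over arrays and chosen after seeing the data, they were at least 12.9-fold and at least 4.79-fold. Saa3 stayed at 4.41-fold over GFP virus at both floors. The planned floor at the 20th percentile was not run because it lay at -1.20, below 0, where no log2 can be taken. No paired analysis was possible because each group has 1 array and the labels give no replicate numbers.

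Counts over all genes fell with the floor, since fewer genes were then bright enough. Between deltaNFAT and GFP virus, 178 higher and 130 lower genes became 37 and 21 at the 60th percentile and 20 and 10 at 96.6. Against uninfected Fos-/- spleen the counts were 243 and 129, then 165 and 77. Against Fos+/+ spleen they were 339 and 231, then 229 and 158. Against Fos+/+ bone marrow they were 116 and 138, then 68 and 82. Genes at least 2-fold above each of the other 4 arrays numbered 14, then 10, for deltaNFAT, 1 and 0 for GFP virus, 10 and 6 for uninfected Fos-/- spleen, 35 and 24 for Fos+/+ spleen, and 13 and 6 for Fos+/+ bone marrow. Quantile normalization gave 34 for bone marrow, against 55.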
